A study of Mus musculus with 12 samples.

Results

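The genes described here encode the subunits of the mitochondrial respiratory chain (complexes I to IV) and of ATP synthase (complex V). They were taken as the protein-coding rows of the 2 deposited tables whose symbols begin with Nduf, Uqcr, Atp5 or Cox4 to Cox8, the 4 subunits of succinate dehydrogenase (Sdha, Sdhb, Sdhc and Sdhd), and every protein-coding gene of the mitochondrial chromosome. This gave 104 genes, of which 103 were in both tables, out of 20844 genes in both. Of the 103, 90 are nuclear and 13 are mitochondrially encoded. Complex I had 45 nuclear and 7 mitochondrial genes, complex II 4 nuclear genes, complex III 8 and 1, complex IV 16 and 3, and complex V 17 and 2. The remaining gene, Cox7b2, a complex IV isoform, was listed in the Keap1 table only. The symbol rule also takes in 7 Ndufaf genes, which encode assembly factors of complex I and not subunits, and Atp5s and Atp5sl, whose products are not core subunits of the synthase.

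The respiratory chain passes electrons from NADH and succinate to oxygen and pumps protons out of the mitochondrial matrix, and ATP synthase uses the return of those protons to make ATP. Its complexes are mosaics of 2 genomes: nuclear genes, transcribed singly and translated in the cytosol, supply most subunits and all assembly factors, while the mitochondrial DNA supplies the hydrophobic cores of complexes I, III, IV and V from long polycistronic transcripts. Nuclear respiratory genes are known targets of nuclear respiratory factor 1 (symbol Nrf1) and of GABPA, and the first of these, despite its name, is unrelated to NRF2 (symbol Nfe2l2), the factor altered in these cells.

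RNA was measured in mouse embryonic fibroblasts, primary connective tissue cells from embryos of embryonic day 13.5 to 14.5, in 12 libraries, 3 in each of 4 groups. The group titled Nrf2D29H/D29H (Nrf2 D29H below) carried the allele LSL-Nrf2D29H and received adenoviral Cre, which removes a stop cassette and turns on NRF2 with the D29H change. The group titled Nrf2LSL/LSL, labelled Nrf2 KO (Nrf2 knockout below), carried the same allele and received the empty adenovirus, so that the allele stays off. The group titled Keap1R554Q/R554Q (Keap1 R554Q) carried CA-Keap1R554Q with adenoviral Cre, and the group titled Keap1WT/WT (Keap1 wild type) the same allele with the empty virus, when it makes wild-type KEAP1, the adaptor that marks NRF2 for degradation. All cells were grown in medium free of pyruvate (10% serum), the virus was given at a multiplicity of infection of 500, and RNA was taken 4 days after infection. The study thus asked what expression of each mutant changes against its own uninduced control. No group had Cre on a wild-type allele, so an effect of Cre and one of the mutant protein cannot be told apart. Nor did the Nrf2 side have a group with wild-type NRF2. Regaining NRF2 and the D29H change itself therefore cannot be told apart. The labels do not say whether replicates came from separate embryos or cultures, so p-values measure the spread between these libraries, which may be technical.

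Counted reads per library ran from 14963004 (Nrf2 knockout replicate 3) to 23818477 (Nrf2 knockout replicate 2). Fibroblast markers were high in every library, with 6 genes summing to 16044 to 16676 CPM (reads relative to counted reads, with the library total multiplied by its TMM factor from all 12 libraries) in Nrf2 D29H, 18177 to 19611 in Nrf2 knockout, 14115 to 15381 in Keap1 R554Q and 14271 to 16552 in Keap1 wild type, so that the 2 Nrf2 groups did not overlap. The 3 erythroid markers summed to at most 0.401 CPM. Skeletal muscle markers, of which Acta1 gave most, summed to 101 to 142 CPM in the Nrf2 groups and 285 to 365 CPM in the Keap1 groups, while Myod1, Myog and Myh3, which define muscle cells, stayed under 1 CPM in every library. Macrophage markers (4 listed genes, Lyz2 the highest) summed to 121 to 133 CPM in Nrf2 D29H, 94.8 to 129 in Nrf2 knockout, 55.3 to 66.8 in Keap1 R554Q and 79.1 to 89.7 in Keap1 wild type. The part of these marker differences in the results below was not tested. Nqo1, a target of NRF2, checked the labels: it was at 108 to 134 CPM in Nrf2 D29H against 7.65 to 10.8 in Nrf2 knockout, and at 306 to 378 in Keap1 R554Q against 33.0 to 33.4 in Keap1 wild type.

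Levels are compared between genes on the FPKM scale, reads relative to gene length and to the counted reads of the library, as deposited by the authors. The mitochondrially encoded genes fell into 2 blocks along the mitochondrial map. The 7 abundant genes were over 100 CPM in every library: mt-Co1, the catalytic subunit of complex IV, had a median of 2657 FPKM over the 12 libraries, mt-Nd1 1517, mt-Cytb (the cytochrome b of complex III) 1459, mt-Nd5 620, mt-Nd2 511, mt-Nd6 402 and mt-Nd4 347. The other 6 were under 30 CPM in every library and are neighbours on the map, running from mt-Co2 to mt-Nd4l: mt-Co2 had 20.3 FPKM, mt-Co3 17.2, mt-Nd3 12.03, mt-Atp6 8.52, mt-Nd4l 3.47 and mt-Atp8 0.708. From mt-Co1 to its neighbour mt-Co2, and again from mt-Nd4 to mt-Nd4l, the listed values drop more than 10-fold, although both genes of each pair lie on one strand and so on one primary transcript. Each of the 5 low genes other than mt-Atp8 has an annotated near-identical copy in the nuclear genome. For mt-Atp8 the search found none, but it covered annotated transcripts only and cannot show that a copy is absent.

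**Figure D1:**
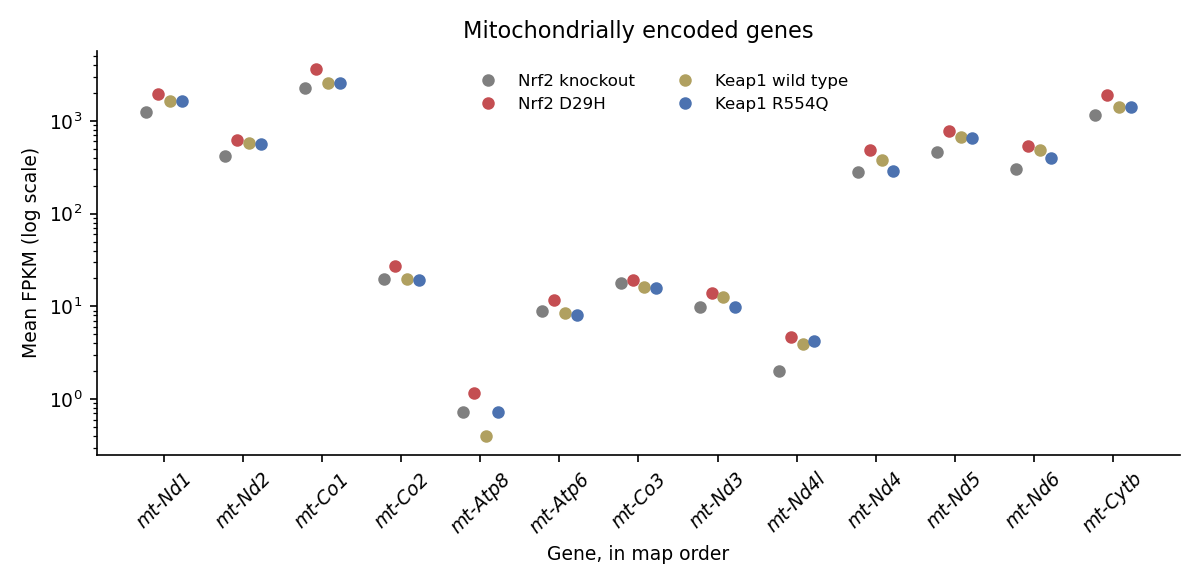
Mean FPKM, on a log scale, of the 13 mitochondrially encoded genes in map order, with 1 point for each of the 4 groups (3 libraries each). The 6 genes from mt-Co2 to mt-Nd4l lie far below their neighbours in all groups, and mt-Co1 is highest.

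The copies sit side by side on chromosome 1, between positions 24611535 and 24616197 of GRCm38, on the minus strand, and GENCODE M21 annotates them as unprocessed pseudogenes. Gm28661 matches the coding sequence of mt-Co2 at 100% identity, Gm10925 matches mt-Atp6 at 100%, Gm28437 mt-Co3 at 100%, Gm28438 mt-Nd3 at 99.71% and Gm10222 mt-Nd4l at 100%. The shortest pair is shown because it makes plain how little separates the transcripts; capitals mark the bases that the copy lacks.
mt-Nd4l: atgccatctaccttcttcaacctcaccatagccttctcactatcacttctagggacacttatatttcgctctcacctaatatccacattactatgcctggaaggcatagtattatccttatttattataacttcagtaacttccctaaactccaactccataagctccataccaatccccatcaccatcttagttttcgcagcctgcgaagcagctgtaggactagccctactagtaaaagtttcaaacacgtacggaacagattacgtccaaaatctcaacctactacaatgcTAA
Gm10222: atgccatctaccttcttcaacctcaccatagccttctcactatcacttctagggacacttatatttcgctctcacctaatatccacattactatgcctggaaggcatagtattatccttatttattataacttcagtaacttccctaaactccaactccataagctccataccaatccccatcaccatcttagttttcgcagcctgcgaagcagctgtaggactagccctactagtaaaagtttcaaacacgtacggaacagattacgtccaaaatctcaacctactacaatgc
These are transcript sequences of GENCODE M21, 5′ to 3′, with mt-Nd4l at chrMT:9877-10173 (plus strand) and Gm10222 at chr1:24612407-24612700 (minus strand). This pair has 0 differing bases, and mt-Nd3 and Gm28438 have 1, apart from the 3 bases at the end of each mitochondrial gene. Over the 12 libraries the copy had 96.5% of the reads of mt-Co2, 177% of mt-Atp6, 100% of mt-Co3, 36.3% of mt-Nd3 and 89.1% of mt-Nd4l. For mt-Co1 and mt-Nd4 the chromosome 1 copies cover only 31.1% and 63.6% of the coding sequence, and the copies' reads were 0.187% and 0.732% of the gene's. Less similar copies lie on chromosome 2. Gm13340 matches 100% of the mt-Co1 coding sequence at 97.6% identity, with 0.0863% of its reads. Gm13341 matches 100% of that of mt-Co2 at 95.9%, with 14.9% of its reads. How reads that match 2 places were counted is not given in the sources used here. The values of mt-Co2, mt-Co3, mt-Atp6, mt-Nd3 and mt-Nd4l are therefore uncertain as levels and as differences. The values of mt-Nd4 and mt-Co1 are uncertain in part, over the stretches that match a copy. Low reads of the copies do not settle this. mt-Atp8 lies between mt-Co2 and mt-Atp6, whose chromosome 1 copies are neighbours, so its value is uncertain too. mt-Atp8 and mt-Atp6 overlap by 43 bases and mt-Nd4l and mt-Nd4 by 7, a further source of shared reads.

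Among nuclear genes the median level was 94.7 FPKM, and 6 of 91 were under 1 FPKM. Cox6a1 (757 FPKM, median of 12 libraries) and Cox4i1 (703), both of complex IV, were the highest, followed by Atp5b (680), the catalytic beta subunit of ATP synthase, and Ndufa4 (543), which the symbol places in complex I although its product is found in complex IV. Where a subunit has a ubiquitous and a tissue-restricted form, the ubiquitous one carried nearly all of the signal. Cox4i2, the form of lung and oxygen-poor tissue, was at 0.705 FPKM beside Cox4i1. Cox6a2, a heart and muscle form, was at 0.614 beside Cox6a1, and Cox7a1, another muscle form, at 4.52 beside Cox7a2 (187) and Cox7a2l (128), the latter a factor of chain supercomplexes. Cox6b2, a testis form, reached 9.07 FPKM beside 405 for Cox6b1. Cox8b was listed with at most 1 or 2 reads a library at a median of 0 FPKM, where a count of 0 allows up to 0.126 to 0.200 CPM (3 counts, counting error only), beside Cox8a at 344. Cox7b2 was likewise at 0 beside Cox7b (199), and Cox8c was not listed in either table. Ndufa4l2, a paralogue induced by low oxygen, was at 0.342 FPKM beside Ndufa4. The 3 genes of the c ring subunit, whose mature proteins are identical, differed in level: Atp5g3 had 417 FPKM, Atp5g2 160 and Atp5g1 36.9. Ndufb2, an accessory subunit of complex I, was listed at only 0.537 FPKM, far below the other complex I subunits, over a listed length of 4371 bases. Its annotated exons share 145 bases (2.58%) with the protein-coding Gm42420, and the counting of overlapping reads is not given in the sources used here, so this level is uncertain. The same limit holds for 201 bases (19.5%) of Ndufb9, shared with Gm49356, and 243 (12.3%) of Atp5o, shared with a second gene entry of that name. It also holds for 75 (4.48%) of Atp5g2, shared with Mir688, and 134 (4.26%) of Ndufb8, shared with Gm20538.

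Processed copies also exist for nuclear members. Of the 91, 21 had another annotated gene that matched at least 80% of the coding sequence at 95% identity or more, and 0 of these copies were counted at 10% or more of the member. The closest approach was Ndufa12, whose copies had 3.49% of its reads; the copies of Cox7c had 1.55%.

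Nrf2 D29H cells were compared with Nrf2 knockout cells first. Mitochondrially encoded transcripts were higher in Nrf2 D29H: all 7 abundant genes passed the test, with folds on the log2 scale from 0.56 to 0.79, and 0 of the 5 low genes tested did. There were 6 nuclear genes higher, Atp5k, Cox7c, Ndufa3, Atp5e, Ndufb6 and Ndufb4, small subunits of complexes I, IV and V, by 0.39 to 0.73. In all, 13 of 100 members tested were called higher, where 3.47% of 14370 genes were, and 0 lower, where 1.28% were. Among the 88 nuclear genes alone the share called higher was 6.82%. The mitochondrial genes other than mt-Nd6 share a strand and so a primary transcript, and all 7 were highest in Nrf2 D29H replicate 2. Their 7 calls are thus not separate observations. The test is edgeR's quasi-likelihood test with Benjamini-Hochberg adjustment over all genes, called at an adjusted p under 0.05. The median log2 fold change was 0.62 over the 12 mitochondrial genes tested, 0.10 over 88 nuclear genes and 0.00 over all genes. Groups did not overlap, with Nrf2 D29H higher, for 8 of 12 mitochondrial and 19 of 88 nuclear genes (12.7% of all genes), and with Nrf2 D29H lower for 8 nuclear genes (12.9% of all genes). These values moved with single libraries, and the calls over all genes (498 higher and 184 lower) moved too. Without Nrf2 D29H replicate 2 the mitochondrial median was 0.37 and 4 members were called, 1 of them mitochondrial, beside 85 genes higher and 9 lower. Without Nrf2 D29H replicate 3, 3 were called, 2 of them mitochondrial, beside 72 and 10. Without Nrf2 D29H replicate 1, 14 nuclear and 8 mitochondrial members were higher and 5 nuclear ones lower, beside 1194 and 998. Leaving out Nrf2 knockout replicate 1 gave 21 members higher (599 genes) and leaving out its replicate 2 gave 8 (226 genes), while without its replicate 3 the nuclear median was 0.05. DESeq2 called 1 mitochondrial gene, mt-Nd6, at a mitochondrial median of 0.63, along with 6 nuclear genes higher (Atp5j2 and the genes above other than Ndufb4) and 1 lower, Atp5a1, beside 402 genes higher and 347 lower.

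Among the mitochondrial genes of complex I, mt-Nd6, encoded on the other strand from the rest, was at 205, 360 and 243 CPM in the 3 Nrf2 D29H libraries and 168, 141 and 159 in Nrf2 knockout. Every Nrf2 D29H library was above every Nrf2 knockout library, and replicate 2 stood highest. It changed by 0.79 on the log2 scale (SE 0.15, adjusted p = 0.00319) and was called in all 6 fits that left out 1 library. mt-Nd5, a subunit of the proton-pumping arm, was at 1059, 1914 and 1143 CPM against 956, 777 and 748, higher by 0.73 (SE 0.17, adjusted p = 0.0147). mt-Nd4, a neighbour of mt-Nd5 in that arm, was at 501, 885 and 529 CPM against 488, 375 and 284, a difference of 0.74 (SE 0.18, adjusted p = 0.0194). In both genes the groups did not overlap, but replicate 1 of Nrf2 D29H was near replicate 1 of Nrf2 knockout. mt-Nd1 (1396, 2371 and 1642 CPM against 1308, 1086 and 1155) and mt-Nd2 (493, 846 and 553.6 against 471, 377 and 437), the first of them a subunit at the quinone site, changed by 0.61 and 0.56 with adjusted p of 0.025 and 0.035. The same library, Nrf2 D29H replicate 2, was highest in every one of these genes.

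Outside complex I, mt-Cytb was at 1641, 2903 and 1772 CPM in Nrf2 D29H and 1504, 1201 and 1231 in Nrf2 knockout (log2 fold change 0.68, SE 0.17, adjusted p = 0.0208). mt-Co1 was at 4321, 7545 and 4322 CPM against 4004, 3255 and 3111 (0.64, SE 0.18, adjusted p = 0.0369). Again the groups did not overlap and replicate 2 stood apart. mt-Co2 was at 13.7, 25.6 and 14.6 CPM against 12.5, 9.22 and 18.4, with overlapping groups and an adjusted p of 0.184. mt-Co3 (adjusted p = 0.819), mt-Atp6 (0.237), mt-Nd3 (0.134) and mt-Nd4l (0.0873) did not pass either, and mt-Atp8, at 0 to 0.392 CPM, was too low to test.

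Summed, the 13 mitochondrial genes took 0.982%, 1.77% and 1.06% of counted reads in Nrf2 D29H, 0.904%, 0.725% and 0.733% in Nrf2 knockout, 0.939%, 1.09% and 0.839% in Keap1 R554Q and 1.09%, 1.02% and 0.807% in Keap1 wild type. The Wilson 95% interval of each share spans at most 0.00561 percentage points on either side, which covers counting error only. Nrf2 D29H replicate 2 was the highest of the 12 libraries; its other 2 replicates lay within the range of the Keap1 groups, and 2 of the 3 Nrf2 knockout libraries lay below all others. The nuclear members took 1.10% to 1.29% in every library, and the number of mitochondrial reads per nuclear member read ran from 0.616 to 1.47. In bulk RNA, more mitochondrial transcript per cell and more cells rich in it cannot be told apart.

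**Figure D2:**
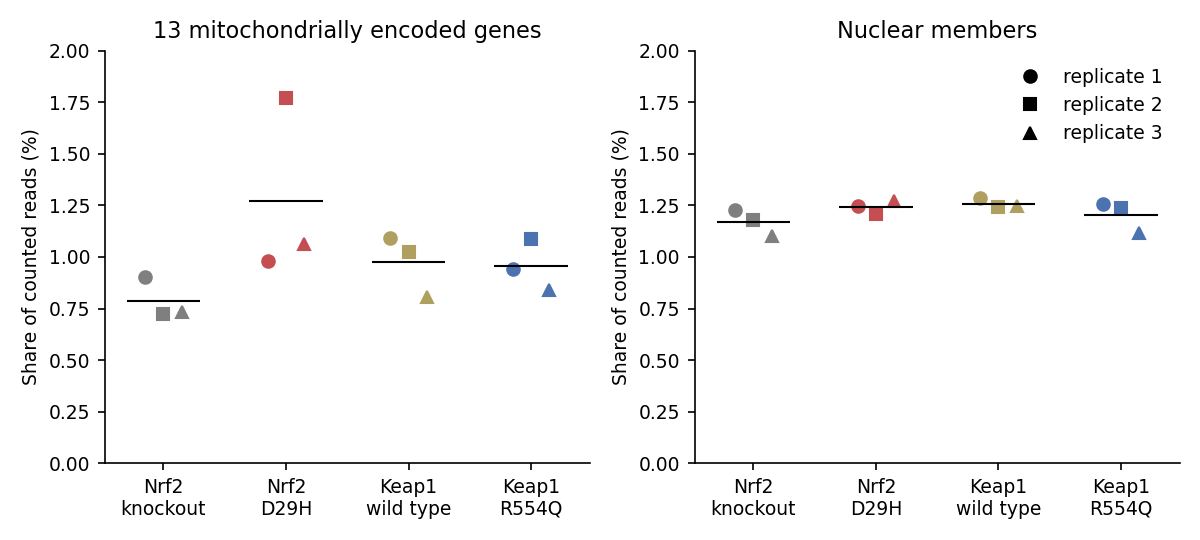
Share of counted reads (%) from the 13 mitochondrially encoded genes (left) and the nuclear members (right), with 1 symbol for each library and a line at the group mean of 3. The mitochondrial share is 1.77% in Nrf2 D29H replicate 2 and at most 1.09% in the other 11 libraries, while the nuclear share stays between 1.10% and 1.29%.

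Of the nuclear genes in the same comparison, Atp5k, which encodes subunit e at the base of ATP synthase, where the enzyme forms dimers, was at 68.8, 81.0 and 99.2 CPM in Nrf2 D29H and 45.7, 46.6 and 58.3 in Nrf2 knockout. The groups did not overlap. The log2 fold change was 0.73 (SE 0.12, adjusted p = 0.00133), and it was called at an adjusted p under 0.05 in all 16 refits, the 6 that left out a library included. Cox7c, a small subunit of complex IV, was at 254, 296 and 342 CPM against 203, 197 and 209 (0.55, SE 0.12, adjusted p = 0.00838). Ndufa3, an accessory subunit of complex I, was at 97.2, 105 and 120 CPM against 80.2, 79.3 and 68.4 (0.49, SE 0.11, adjusted p = 0.00925). Both had no overlap between groups, and both lost their call only without Nrf2 D29H replicate 3, where the adjusted p was 0.129 for each. Atp5e, the epsilon subunit of the ATP synthase stalk, was at 198, 242 and 258 CPM against 192, 174 and 117 (0.53, SE 0.14, adjusted p = 0.0296), with the 2 groups nearly touching and the Nrf2 knockout replicate 3 lowest. Its call was lost without that library, and also without Nrf2 D29H replicate 2 or 3, with an adjusted p of up to 0.232, and in the one fit of 12 libraries. Ndufb6 and Ndufb4, which passed beyond the limit of 10 for named genes and were chosen after their values were seen, had adjusted p of 0.0362 and 0.0481 and were not called in the one fit of 12 libraries; Ndufb4 was at 28.2 CPM in Nrf2 knockout replicate 3 and at 46.0 to 53.6 in its other replicates.

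For each complex, 2 subunits were set as examples, and 0 of the 10 passed edgeR's test in this comparison. Atp5a1 and Atp5b, the alpha and beta subunits of ATP synthase, were at 511, 401 and 423 and at 1248, 888 and 973 CPM in Nrf2 D29H, against 522, 559 and 591 and 1205, 1319 and 1370 in Nrf2 knockout. Both had a log2 fold change of -0.33, with adjusted p of 0.104 and 0.142. Uqcrc1, a core subunit of complex III, had -0.29 (adjusted p = 0.12), and Ndufs1, the largest iron-sulphur subunit of complex I, had -0.29 (0.122). Ndufv1, the NADH-binding subunit, had -0.16 (0.381) and Uqcrfs1, the Rieske iron-sulphur protein, -0.18 (0.286). Sdha and Sdhb, the flavin and iron-sulphur subunits of succinate dehydrogenase, had -0.20 and -0.09, and all 4 genes of complex II were below 0. Cox4i1 and Cox5a had 0.24 and -0.07 with adjusted p of 0.252 and 0.751.

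**Figure D3:**
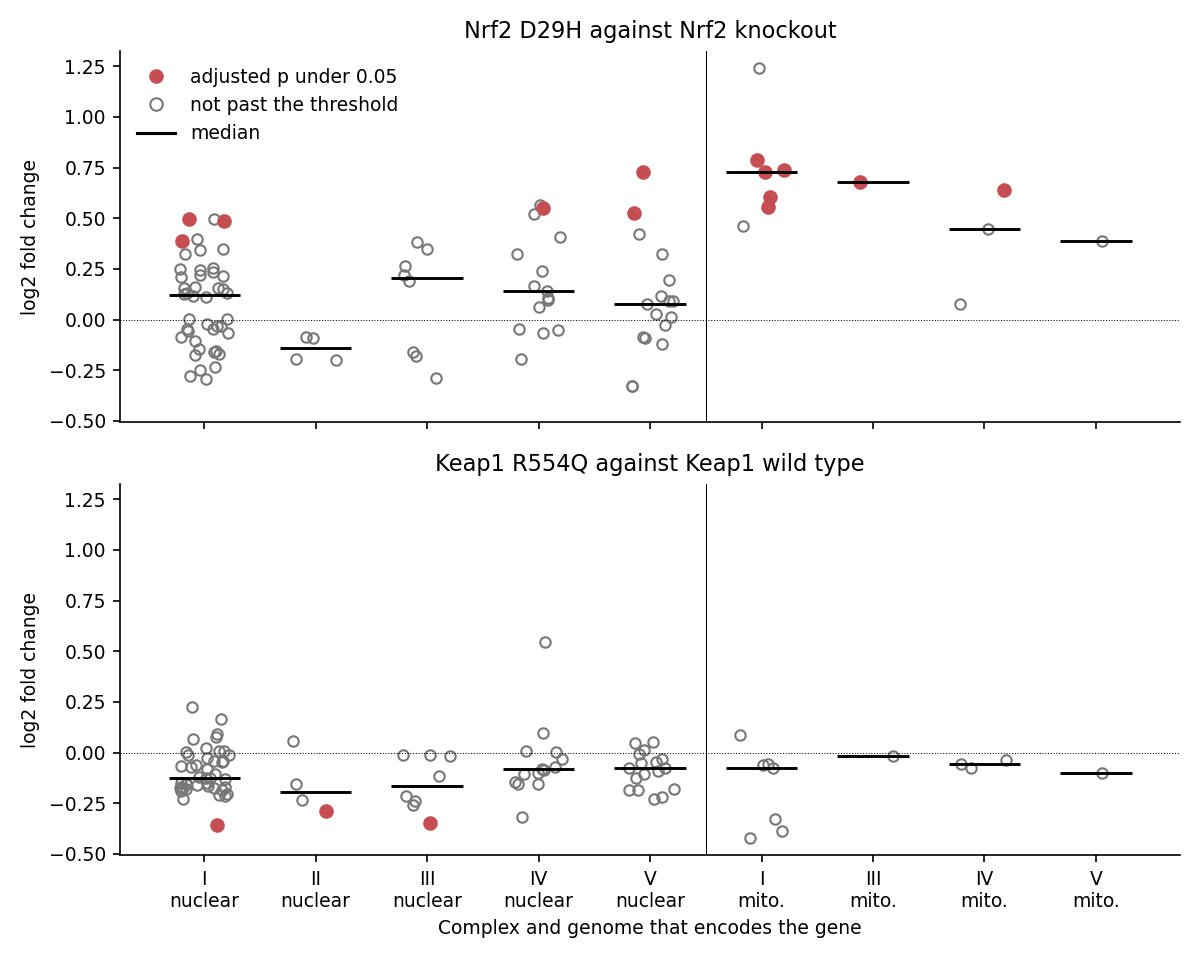
Log2 fold change of each member tested, by complex and by the genome that encodes it, for Nrf2 D29H against Nrf2 knockout (top) and Keap1 R554Q against Keap1 wild type (bottom); filled points passed an adjusted p under 0.05 and lines are medians. In the top panel the mitochondrial genes lie above 0 while the nuclear genes spread on both sides, and in the bottom panel most points lie slightly below 0.

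Nuclear respiratory genes are short, with a median listed length of 971 bases against 3008 over all genes tested. Across the 88 nuclear genes tested, Spearman's rho between length and log2 fold change in Nrf2 D29H against Nrf2 knockout was -0.42, a description over genes that share libraries, and it was 0.02 over all genes tested. In Keap1 R554Q against Keap1 wild type it was -0.04 over 87 nuclear genes and 0.10 over all genes. In Nrf2 knockout against Keap1 wild type, which shares the Nrf2 knockout libraries, it was 0.40 (0.02 over all genes), and for the difference between the alleles -0.35 (-0.05). In Nrf2 D29H the 44 genes under 1000 bases had a median of 0.18 and 5 calls (11.4%), and the 44 longer ones -0.05 and 1 call (2.27%). Over all genes tested 3.47% were called higher. The share among all genes of each length was not counted, so this split is not a result about the members. With an offset for gene length fitted to each library the rho was -0.24, the nuclear median 0.05 and the number of nuclear calls 6. Single libraries departed from their group along length: across all genes tested in the 12-library fit the rho of a library's deviation with length ran from -0.26 to 0.26, with 0.26 in Nrf2 D29H replicate 2, -0.20 in its replicate 1 and 0.24 in Nrf2 knockout replicate 3. Along GC content the departures were larger, from -0.44 in Keap1 wild type replicate 2 and -0.35 in Keap1 R554Q replicate 3 to 0.37 in Keap1 wild type replicate 3.

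**Figure D4:**
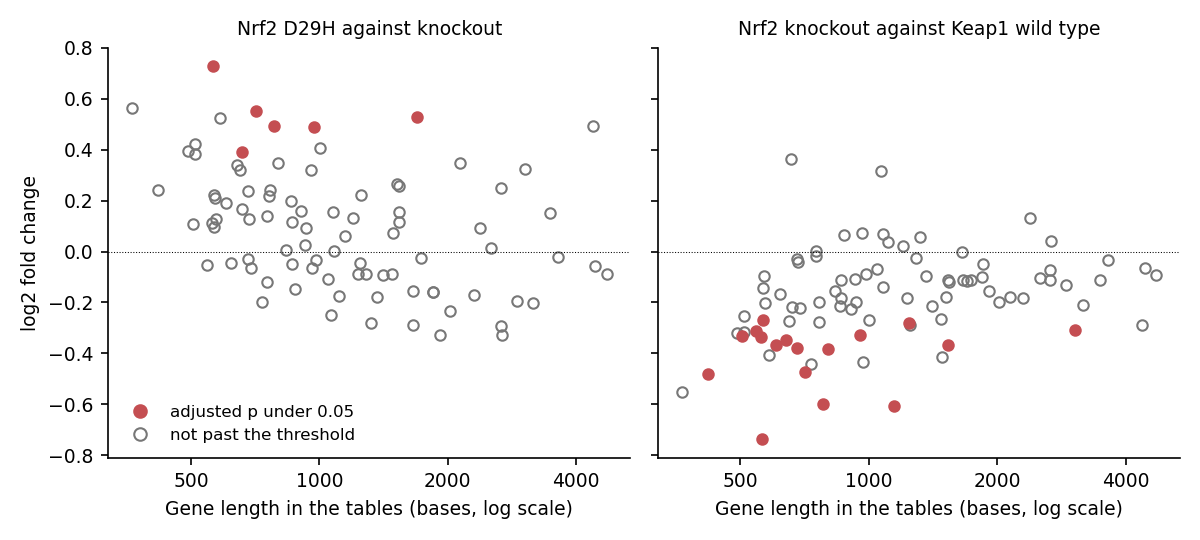
Log2 fold change of each nuclear member tested against its listed gene length (bases, log scale), for Nrf2 D29H against Nrf2 knockout (left) and Nrf2 knockout against Keap1 wild type (right), which share the Nrf2 knockout libraries; filled points passed an adjusted p under 0.05. On the left 34 of 44 genes under 1000 bases and 19 of 44 longer ones lie above 0; on the right 40 and 37 of 44 lie below 0.

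Keap1 R554Q cells were then compared with their own control, Keap1 wild type. Here 3 nuclear genes were lower and none was higher: Uqcrc2, the second core subunit of complex III, Ndufaf2, an assembly factor that acts late in the making of complex I, and Sdhd, a membrane anchor of complex II. These are 3 of 99 members tested, where 2.4% of 14128 genes were called lower, and 0 higher, where 3.77% were, so the share called lower is near that of all genes. The median log2 fold change was -0.11 over 87 nuclear genes, 70 of which were below 0, and -0.07 over 12 mitochondrial genes, beside 0.00 over all genes. Without Keap1 R554Q replicate 3 these medians were -0.03 and 0.06. The mitochondrial one was 0.03 without Keap1 wild type replicate 1, -0.22 without Keap1 R554Q replicate 2 and -0.20 without Keap1 wild type replicate 3, so its sign rested on single libraries. All mitochondrial genes missed the threshold. The lowest adjusted p was 0.063, for mt-Nd4, at 318, 429 and 467 CPM in Keap1 R554Q and 592, 608 and 434 in Keap1 wild type. Part of mt-Nd4 matches a nuclear copy, so this value is uncertain in part.

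Uqcrc2 was at 145, 130 and 148 CPM in Keap1 R554Q and 176, 192 and 172 in Keap1 wild type, with no overlap (log2 fold change -0.35, SE 0.08, adjusted p = 0.0202). Ndufaf2 was at 27.7, 30.3 and 29.4 CPM against 36.9, 36.3 and 39.3 (-0.36, SE 0.09, adjusted p = 0.0219), and Sdhd at 135, 121 and 127 CPM against 158, 154 and 158 (-0.29, SE 0.08, adjusted p = 0.0331). Both also separated fully. In Nrf2 D29H, Ndufaf2 was at 36.0, 33.8 and 31.9 CPM and in Nrf2 knockout at 32.1, 30.5 and 23.3, where its adjusted p was 0.22. Groups without overlap and lower in Keap1 R554Q were found for 25 of the 87 nuclear genes, where 14.2% of all genes tested were lower without overlap, and for 0 of 12 mitochondrial genes. Upward separation was seen in 0 members, where 13.3% of genes had it. The calls depended on single libraries: 0 members were called without Keap1 R554Q replicate 1, without Keap1 wild type replicate 1 or 2, and when each library was offset for gene length and GC content, and 10 without Keap1 R554Q replicate 3, when 3 nuclear genes were higher and 6 nuclear and 1 mitochondrial lower. Calls over all genes, 533 higher and 339 lower with all libraries, moved the same way. They were 186 and 52, 283 and 109, 193 and 48, and 328 and 205 in these 4 fits with 0 members, in that order, and 1530 and 1342 without Keap1 R554Q replicate 3. A block for replicate number also gave 0 members, beside 327 and 157 genes. So did an adjusted p under 0.01, beside 191 and 51. With the offsets for gene length and GC content the mitochondrial median turned from -0.07 to 0.16.

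The same 10 subunits did not pass the test in Keap1 R554Q. Uqcrfs1 was at 81.1, 84.7 and 86.9 CPM against 99.7, 105 and 98.7 and just missed the threshold (-0.26, SE 0.08, adjusted p = 0.0547). Atp5b had -0.18 (adjusted p = 0.246), Sdhb -0.16 (0.232), Cox4i1 -0.11 (0.476), and Ndufs1, Ndufv1, Sdha, Uqcrc1, Cox5a and Atp5a1 lay between -0.07 and 0.06. Among the isoforms Cox6b2 was the member with the smallest p among those above 0, at 9.37, 7.30 and 5.19 CPM against 5.69, 4.21 and 5.14 (0.54, SE 0.19, adjusted p = 0.095), followed by Ndufb6 (0.17, adjusted p = 0.538) and Ndufb2 (0.22, 0.568). Cox7a2, Cox7a2l, Cox6a1, Cox8a, Ndufa4 and the 3 Atp5g genes had adjusted p of 0.213 or more.

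**Figure D5:**
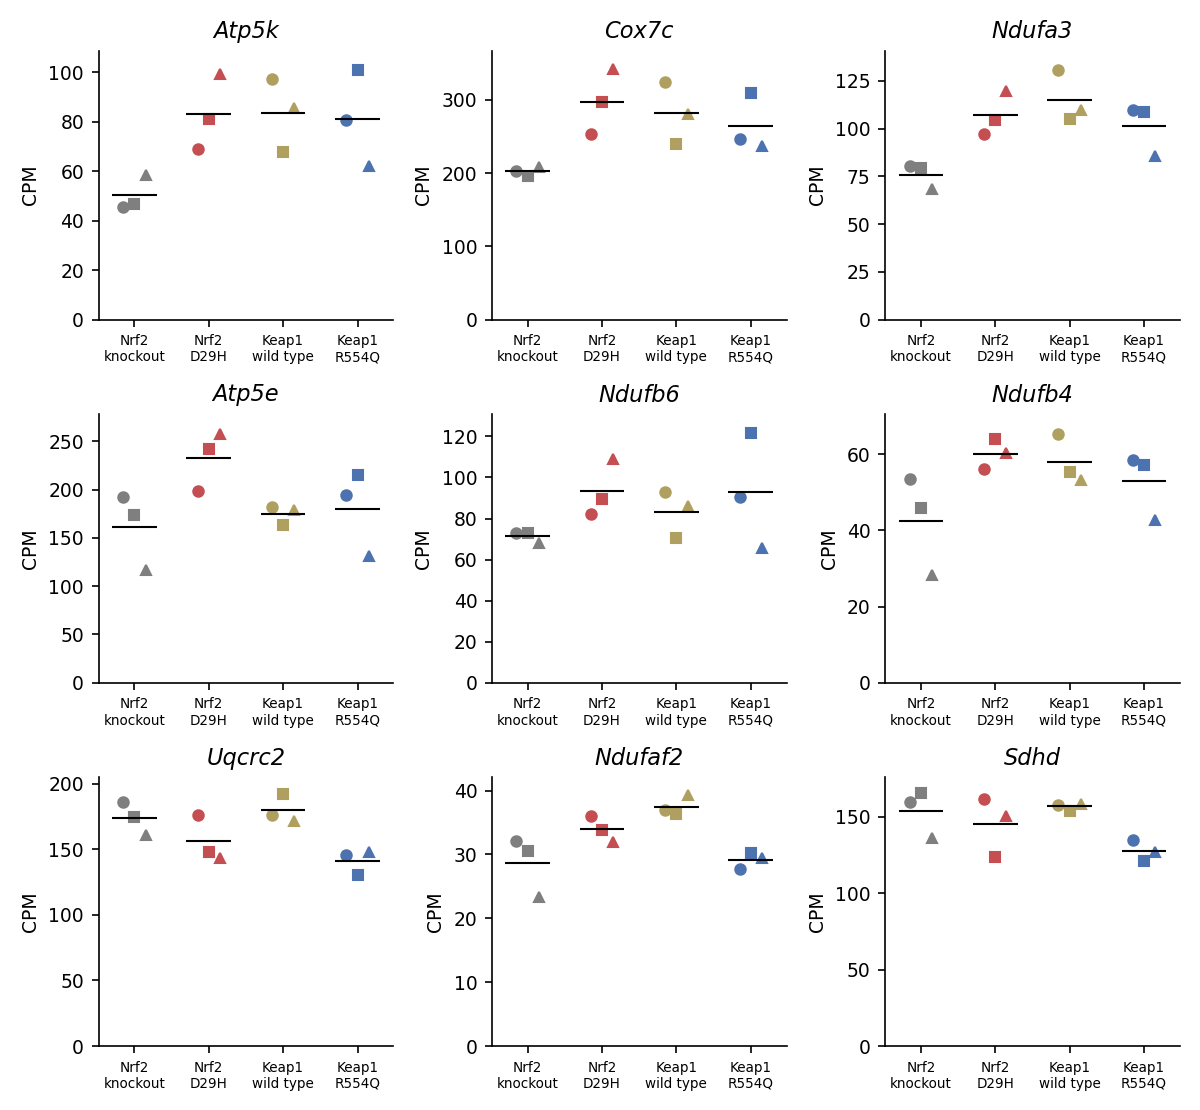
CPM of the 9 nuclear members past an adjusted p under 0.05 in Nrf2 D29H against Nrf2 knockout (first 6 panels) or Keap1 R554Q against Keap1 wild type (last 3), with 1 symbol for each library (circle, square and triangle for replicates 1 to 3) and a line at the group mean of 3. Atp5k, Cox7c and Ndufa3 are lowest in Nrf2 knockout, and in these genes Nrf2 D29H lies in the range of the Keap1 groups or close to it.

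The 12 libraries together were asked whether the 2 mutants differed from their own controls in unlike ways. For this the Keap1 R554Q difference was taken from the Nrf2 D29H difference. The baselines are unlike, with cells without NRF2 on the Nrf2 side and cells with wild-type KEAP1 on the Keap1 side. Between these controls the mitochondrial median was -0.45 (Nrf2 knockout against Keap1 wild type). A difference between the mutants and one between the controls cannot be told apart here. Of 100 members tested 0 were called in either direction by edgeR's quasi-likelihood test, where 0.00676% of 14794 genes were called higher and 0.0203% lower; 37 had an unadjusted p under 0.05, beside 1668 (11.3%) of all genes. DESeq2 called 2 members, Ndufa3 (adjusted p = 0.0252) and Ndufaf2 (0.0498), beside 30 genes higher and 41 lower in all, and edgeR with no filter on low counts called 3, Ndufa3 (0.0324), mt-Nd4 and mt-Nd6 (0.0115 each); these were named after their values were seen. The median was 0.21 over nuclear and 0.70 over mitochondrial genes, beside 0.01 over all genes. The smallest p-values were those of Ndufa3 (0.68, SE 0.16, adjusted p = 0.143), mt-Nd4 (1.17, SE 0.28, adjusted p = 0.145) and mt-Nd6 (1.12, SE 0.27, adjusted p = 0.145). The value of mt-Nd4 is uncertain in part because of its nuclear copy. In the other direction Ndufa10 had -0.25 (adjusted p = 0.454), Uqcrc1 -0.26 (0.463) and Sdha -0.24 (0.466).

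The 2 empty-virus controls were compared last. In Nrf2 knockout against Keap1 wild type, 17 nuclear and 4 mitochondrial genes were lower and none was higher, by edgeR's quasi-likelihood test. That is 21.0% of 100 members tested and 19.3% of the 88 nuclear ones, where 10.1% of 14794 genes were lower and 9.58% higher. The medians were -0.18 for nuclear and -0.45 for mitochondrial genes, beside -0.01 over all genes. Groups did not overlap, with Nrf2 knockout lower, for 33 nuclear and 5 mitochondrial genes (19.1% of all genes), and higher for 1 nuclear gene, Ndufaf3 (17.9%). These cultures differ in allele, in Nrf2 status and in origin, which cannot be told apart, and the comparison shares the Nrf2 knockout libraries with that of Nrf2 D29H. Without Keap1 wild type replicate 1, 7 nuclear genes and 0 mitochondrial ones were lower, beside 984 genes, and without Nrf2 knockout replicate 2, 12 members, beside 1013, where 1493 genes were lower with all libraries. Without Nrf2 knockout replicate 3 the nuclear median was -0.12. DESeq2 called 17 nuclear genes and 0 mitochondrial ones lower, beside 1452 genes lower and 1459 higher.

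Cox7a2l had the smallest p: it was at 132, 122 and 108 CPM in Nrf2 knockout and 175, 199 and 179 in Keap1 wild type (log2 fold change -0.61, SE 0.09, adjusted p = 6.32e-05). It was at 137, 120 and 121 CPM in Nrf2 D29H and 178, 160 and 155 in Keap1 R554Q, so that both Nrf2 groups lay below both Keap1 groups. Ndufa3 was 131, 105 and 110 CPM in Keap1 wild type (-0.60, SE 0.11, adjusted p = 0.000391) and Atp5k 97.3, 67.5 and 85.3 (-0.74, SE 0.16, adjusted p = 0.00151), while Cox7c was 324, 240 and 281 (-0.47, SE 0.12, adjusted p = 0.00678). For these 3 genes the Nrf2 D29H libraries overlapped those of Keap1 wild type. Ndufa1, an accessory subunit encoded on the X chromosome, was at 39.9, 39.3 and 42.1 CPM against 59.0, 55.5 and 54.6 (-0.48, adjusted p = 0.00136). Ndufv3 (-0.37), Cox6b1 (-0.33), Ndufaf2 (-0.38) and Cox8a (-0.31) were also lower. Cox7a2l, Ndufa3, Ndufa1, Atp5k, Ndufv3 and Cox6b1 were called at an adjusted p under 0.05 in all 21 refits, 12 of which left out 1 library; Cox6b1, with an adjusted p of 0.0108, did not pass a threshold of 0.01. Of the mitochondrial genes mt-Nd6 (-0.74), mt-Nd5 (-0.61), mt-Nd2 (-0.54) and mt-Nd1 (-0.48) were lower, and mt-Cytb (-0.35, adjusted p = 0.152) and mt-Co1 (-0.24, adjusted p = 0.36) did not pass. mt-Nd4, at the median fold of the 7 abundant genes (-0.51), did not pass either. Above 0, the smallest p-values were those of Ndufaf3 (0.32, adjusted p = 0.125), Atp5sl (0.13, 0.529) and Ndufs8 (0.07, 0.681).

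Over the 4 groups, Nrf2 knockout had the lowest mean CPM for 42 of 88 nuclear genes, beside 23.6% of all genes tested, and Keap1 wild type the highest for 47 of 88, beside 25.2% of all genes. Nrf2 D29H had the highest mean for 12 of 12 mitochondrial genes tested and Nrf2 knockout the lowest for 9, beside 28.9% and 23.6% of all genes. The first count rested on single libraries: without Nrf2 D29H replicate 2 it was 4 of 12, with Nrf2 knockout still lowest for 9, and without Keap1 wild type replicate 3 it was 7. The nuclear count of 42 was 28 without Nrf2 knockout replicate 3. Neighbouring means in these orders often lay within the spread of their 3 libraries.

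Genes that serve the same complexes but stand outside the symbol rule were counted from lists of known function. In Nrf2 D29H against Nrf2 knockout, shares are to be read beside the 3.47% of all genes called higher and 1.28% lower. Of 41 tested assembly factors, 3 (7.32%) were higher in Nrf2 D29H than in Nrf2 knockout: Pet100, needed to build complex IV (25.1 ± 6.4 against 13.4 ± 2.0 CPM, SD, n = 3; log2 fold change 0.89, adjusted p = 0.00136), the copper chaperone Cox17 (0.70, adjusted p = 0.0348) and Cox19 (0.38, 0.0415). Cox17 has a mean of only 7.28 CPM. Of 24 genes of mitochondrial DNA maintenance and transcription 1 (4.17%), Slirp, which stabilises mitochondrial messenger RNA, was higher (22.9 ± 2.9 against 12.6 ± 1.2 CPM; 0.86, SE 0.12, adjusted p = 0.000173), and it was lower in Nrf2 knockout than in Keap1 wild type (-0.92, adjusted p = 6.4e-05). Of 78 tested genes of the mitochondrial ribosome 1 (1.28%), Mrpl14, was higher (0.53, adjusted p = 0.0106). Of 18 enzymes of the tricarboxylic acid cycle 1 (5.56%), Idh3a, was lower (-0.37, adjusted p = 0.0405), and the median of that list was -0.24. No electron carrier or coenzyme Q gene (12 tested) and no regulator of nuclear respiratory genes (9 tested) passed in this comparison. A share resting on 1 gene is not a result about its list.

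In Keap1 R554Q, where 2.4% of all genes were lower and 3.77% higher, each list held 1 call or none except the mitochondrial ribosome with 4 (5.19%). Mrpl17 (-0.32), Mrps6 (-0.30), Mrps9 (-0.31) and Mrpl32 (-0.37) of 77 tested mitoribosome genes were lower, with adjusted p of 0.0252 to 0.0488 and a list median of -0.14. Coq10b, of coenzyme Q function, was lower (-0.36, adjusted p = 0.0162), as were Tmem126a, a complex I assembly factor (-0.39, 0.0288), and Fh1, fumarate hydratase (-0.32, 0.0476). Ppard, a nuclear receptor of fat oxidation, was the 1 regulator higher (74.4 ± 0.74 against 51.4 ± 3.4 CPM; 0.54, SE 0.08, adjusted p = 0.000531). Between the controls 10.1% of all genes were lower and 9.58% higher. Of 11 regulators tested there 1 (9.09%), Nrf1 itself, was higher in Nrf2 knockout (32.4 ± 1.5 against 25.9 ± 0.84 CPM, log2 fold change 0.32, adjusted p = 0.0121). Another 1 (9.09%), Esrrg, was lower there at a mean under 1 CPM (-2.66, adjusted p = 0.0143). Both shares are near those of all genes. Among the 41 assembly factors 1 (2.44%), Tmem186, was higher (0.39), and 5 (12.2%), a share near that of all genes, were lower: Coa5 (-0.38), Higd2a (-0.39), Pet100 (-0.66), Cox19 (-0.31) and Tmem70 (-0.27). Of 78 mitoribosome genes 1 (1.28%), Mrps21 (-0.30), was lower, a share below that of all genes. Of 18 enzymes of the tricarboxylic acid cycle 1 (5.56%), Idh2, was higher (0.34).

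Promoters of the nuclear members were searched because Nrf1, NRF2 and GABPA each have a known recognition sequence. RefSeq promoter windows of GRCm38.p6, 300 bases from 250 before to 50 after the start, matched 73 members by symbol. The Nrf1 motif GCGCATGCGC, a palindrome and so the same on both strands, was in 7 of 73 members (9.59%) and in 1.07% of all 27025 genes. The core of the antioxidant response element bound by NRF2, TGACNNNGC on either strand, was in 11 of 73 (15.1%) and in 14.0% of all genes, and the ETS core CCGGAAGT in 5 of 73 (6.85%) and in 4.31%. These are letter matches, not measured binding. Of the genes higher in Nrf2 D29H, Atp5k held the Nrf1 motif and no NRF2 core; the 250 bases before its start at chr5:108434400-108434649 (minus strand, RefSeq GRCm38.p6) are shown with that motif in capitals, as it had the smallest p among the nuclear members in that comparison.
Atp5k: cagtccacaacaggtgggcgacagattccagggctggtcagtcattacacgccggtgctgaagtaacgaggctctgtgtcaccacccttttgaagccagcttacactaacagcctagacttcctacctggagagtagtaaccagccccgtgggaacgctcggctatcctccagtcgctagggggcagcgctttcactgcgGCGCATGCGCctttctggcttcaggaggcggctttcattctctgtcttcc
The windows of Cox7c, Ndufa3, Atp5e, Ndufb4, Ndufb6, Sdhd, Ndufaf2 and Cox7a2l held none of the 3 sequences, Ndufa1 held the NRF2 core, and Uqcrc2 had no entry.

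The authors' deposited table was read beside these tests. In Nrf2 D29H against Nrf2 knockout, the authors' deposited table has an adjusted p under 0.05 for 7 members with a higher value (Atp5e, Atp5j2, Atp5k, Cox7c, Ndufa3, Ndufb6 and mt-Nd6) and for 1 with a lower one (Atp5a1), and 6 of the 13 calls made here are among them. In Keap1 R554Q against Keap1 wild type the authors' deposited table has 5 members lower (Atp5f1, Ndufaf2, Sdhd, Uqcrc2 and Uqcrfs1) and 0 higher, and all 3 calls made here are among them.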

How the data were processed

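RNA-seq of 12 fibroblast libraries was used, in 2 deposited tables, 1 for the Nrf2 groups and 1 for the Keap1 groups, with 3 libraries in each of 4 groups. The values tested are raw counts, deposited by the authors with no normalisation, per the file headers. FPKM (relative to listed gene length and column total) were deposited by the authors too. Their tables also hold group means of normalised counts (a signal), log2 fold changes and p-values with adjusted p-values, all deposited by the authors. STAR, mm10 and DESeq2 are named in the submitters' processing notes; counting tool, annotation, use of strand and handling of multiply mapped reads are not given in the sources used here.

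Counts were tested in R 4.3.3 with edgeR 4.0.16 (filterByExpr, TMM, glmQLFit, glmQLFTest), on the 6 libraries of a table for each mutant against its control, and on all 12 libraries over genes in both tables for the difference between the alleles and for the 2 controls. Adjusted p (Benjamini-Hochberg) covers all genes tested, with a threshold of 0.05. CPM in the text are scaled over all 12 libraries. Of the members, mt-Atp8, Cox7b2, Cox8b and Ndufa4l2 were too low to test in every comparison, and Cox6a2 also in the Keap1 one. FPKM serve only to compare levels between genes.

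Genes were named by rule: every mitochondrial gene, 10 set subunits, the isoform pairs, up to 10 calls per direction and comparison (the 3 smallest p where none passed), and up to 4 per list and direction. Members, lists and tests were chosen with earlier results of these data known. Copies were sought with BLAST+ 2.17.0 against GENCODE M21 transcripts. Alternatives were scaling by RLE or upper quartile, testing every gene or those with a mean count of 50 or more, DESeq2 1.42.0, limma-trend (3.58.1), one fit of 12 libraries, a replicate block, an offset for gene length, an adjusted p under 0.01 and each library left out; offsets for GC content and gene length, and group order with each library left out, were added after the data were seen. The test was tried on simulated counts.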

Additional observations from a re-analysis of the deposited data

How the results depend on the processing

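Counts of members called moved with single libraries. Leaving out 1 library gave 3 to 27 calls in Nrf2 D29H against Nrf2 knockout (13 with all), with 27 (5 of them lower) without Nrf2 D29H replicate 1 and 21 without Nrf2 knockout replicate 1, while the genes called higher over all ran from 72 to 1194; 0 to 10 in Keap1 R554Q (3 with all); 0 to 1 for the difference between the alleles; and 7 to 26 between the controls (21 with all). The mitochondrial median of the difference between the alleles ran from 0.41 (without Nrf2 D29H replicate 2) to 0.85, and the nuclear one from 0.14 (without Keap1 R554Q replicate 3) to 0.27. In the order Nrf2 D29H, Keap1 R554Q and difference between the alleles, DESeq2 called 8, 5 and 2 members and no filter on low counts 21, 7 and 3; over all genes these were 402, 574 and 30 higher and 347, 521 and 41 lower with DESeq2, and 739, 825 and 17 higher and 456, 677 and 15 lower with no filter. An adjusted p under 0.01 gave 4, 0 and, between the controls, 7. In Keap1 R554Q, 1 member was called with an offset for gene length and 0 with offsets for gene length and GC content together. The nuclear median of the difference between the alleles, 0.21, was 0.11 with the first and 0.0899 with both. Its mitochondrial median, 0.70, was 0.65 with the first and 0.44 with both. With totals scaled by TMM factors the mean nuclear share was 1.20% in Nrf2 D29H and 1.15% in Nrf2 knockout. It was 1.21% in Keap1 R554Q and 1.31% in Keap1 wild type. The cause of these shifts was not tested.

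The replicate numbers share only a number: deviations of same-numbered libraries correlated at -0.17 to 0.03 across genes. With a replicate block the calls were 16 in Nrf2 D29H, 0 in Keap1 R554Q, 0 between the alleles and 22 between the controls, where 524, 327, 0 and 1349 of all genes were higher and 204, 157, 0 and 1448 lower. Over the named genes, 2723 of 3001 recomputed values kept direction and side of the threshold, 80 lost a call, 43 gained one, and 155, of genes called in neither fit, changed sign; 0 called values changed sign. At these depths mt-Atp8, Cox7b2, Cox8b and Ndufa4l2 were too low to test.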
